A study of Mus musculus with 9 samples.

Results

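The normal 6-week mouse liver was described from the 5 control libraries of a series of 9, ranked across 30519 transcripts by their mean value in the controls. The controls, labelled WT, were floxed littermates of mice lacking the liver microRNA miR-122. They carried the floxed alleles and the microRNA, and came from 3 females and 2 males. The 4 knockout livers form the rest of the series and were left out. No source used here states how the knockout was made, the strain, or the time of day and feeding state at collection. Each liver was flash frozen and pulverised, polyA RNA was taken from the part of the powder that was not crosslinked, and each library is 1 animal. The column of female 3 is headed as male in the deposited table, but its mouse number ties it to the sample labelled female. Its Y-linked levels were those of a female library: Eif2s3y was at 0.114 there, against 44.8 and 50.04 in males 4 and 5 and 0 in females 1 and 2.

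Hepatocytes make up most of the liver's mass. They secrete most plasma proteins, run the urea cycle and glucose production, oxidise fatty acids in dense mitochondria, and convert steroids and foreign compounds with cytochrome P450 and conjugating enzymes. In mice they also secrete major urinary proteins (MUPs), small lipocalins that carry pheromones into urine. Many hepatocyte genes differ between males and females because growth hormone is released in pulses in males and more evenly in females.

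The values behave as kallisto abundances per transcript length divided by a library size factor, with 1 transcript listed per gene. They can be compared between the listed transcripts, but they are not TPM. The sum over all rows was 873227 in female 1, the lowest, and 1166630 in male 5, the highest. A value is that of 1 form of a gene, not of the whole gene. The principal form was listed in 81.3% of the 10108 rows of protein-coding genes with a mean of at least 1. It was listed in 86 of the first 100 rows. In 1e6 reads, the listed transcripts held about 19.2 to 19.7 in the females and 12.1 to 12.6 in the males, as recovered from the steps between low values. Sex therefore goes with depth, and the 2 cannot be told apart. Of all rows, 10560 had a mean of at least 1, 13349 were above 0 in all 5 libraries and 11028 were at 0 in all 5. The Pearson r of log2(value + 1) across transcripts was 0.967 to 0.980 between animals of the same sex and 0.936 to 0.968 between the sexes, as a description, since transcripts are not replicates.

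The defining hepatocyte markers placed the samples as liver. All 10 of the hepatocyte list ranked within the first 1000 transcripts, with means from 91.3 for the transcription factor Hnf4a to 62240 for albumin (Alb). Markers of other cells were mostly present at low levels. The stellate and fibroblast marker Dcn, at a mean of 131, was above Hnf4a. The summed values of 10 endothelial markers ran from 84.1 to 125, those of 10 Kupffer cell and macrophage markers from 240.0 to 330 and those of 10 stellate and fibroblast markers from 146 to 249. Only 2 of 10 cholangiocyte markers had a mean of at least 1, the higher being Spp1 (40.6), and 2 of 10 lymphocyte markers did (Ighm, 2.29, and Cd79b, 1.07). Red cell RNA was visible through the globins Hbb-bs (695 ± 153, SD, n = 5) and Hba-a2 (357 ± 82.7). In whole tissue, fewer cells of a type and less RNA per cell cannot be told apart.

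A few transcripts held most of the summed values. These values are per transcript length, so their shares are not shares of reads or of RNA mass. The highest, Alb, took 6.35% ± 2.69 of the summed values (mean ± SD, n = 5 livers), the first 10 took 33.1% ± 3.62, the first 100 took 65.9% ± 3.38 and the first 1000 took 88.0% ± 1.24. By the mean, 28 transcripts held 50% of the total, 248 held 75% and 1285 held 90%. In each liver's own order, 50% was reached with 31, 32 and 25 transcripts in the females and with 25 and 21 in the males. Without the mitochondrially encoded transcripts in the total, 54 transcripts were needed.

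**Figure D1:**
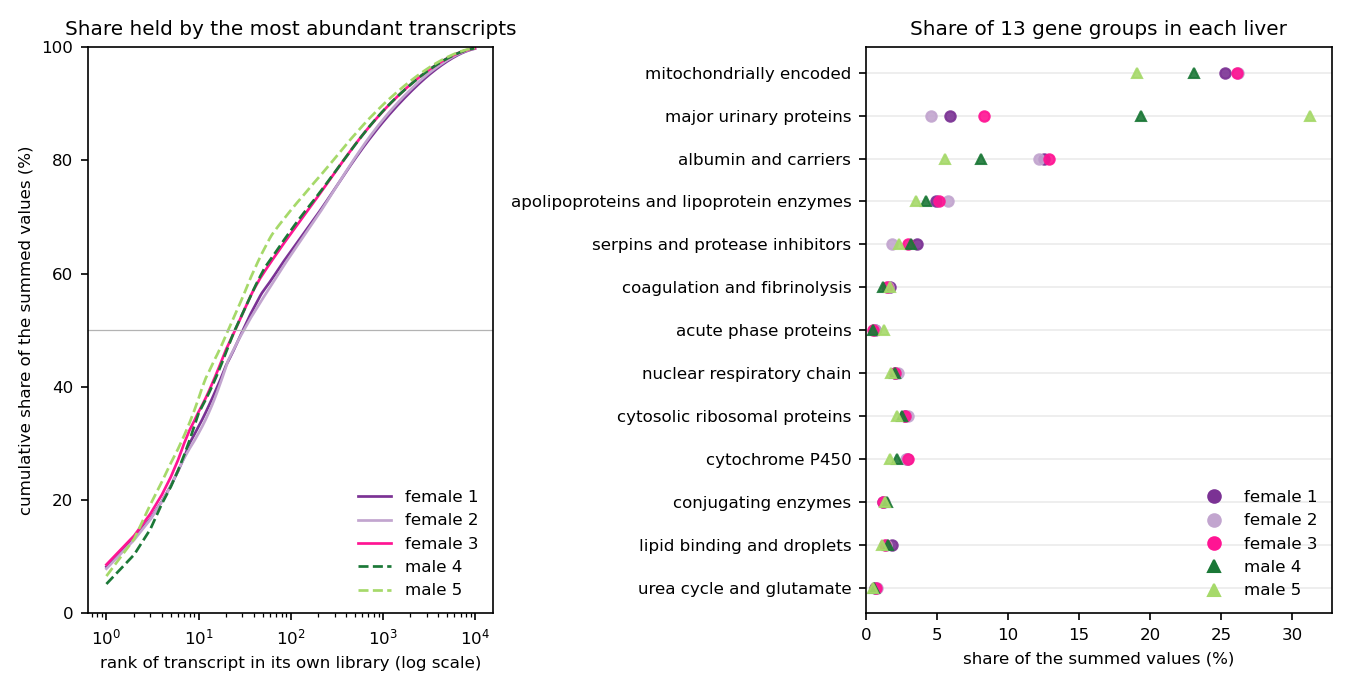
Left: cumulative share of the summed values (%) against the rank of a transcript in its own library (log scale), 1 line per liver, with females solid and males dashed. Right: share of the summed values (%) of 13 gene groups, 1 point per liver, where MUPs run from 4.56% to 8.32% in the 3 females and reach 19.4% and 31.3% in the 2 males.

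The class of secreted proteins held the largest of the 4 classes' shares on average, and its share differed most between animals. Its 178 listed transcripts took 30.6%, 28% and 32.6% of the total in females 1, 2 and 3, and 37.8% and 46.7% in males 4 and 5. The mitochondrial class, which joins the mitochondrial genome's own transcripts with nuclear genes of the respiratory chain, ribosome, carriers and citric acid cycle, took 28.7%, 29.8%, 29.3%, 26.2% and 21.7% in the same order. The metabolic class took 13.2%, 13.6%, 12.3%, 11.7% and 9.49%, and a housekeeping class of ribosomal proteins, translation factors, proteasome, folding and cytoskeleton took 4.66%, 4.71%, 4.48%, 4.27% and 3.79%. All other transcripts together took 21.3% ± 2.24.

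Between the sexes these shares did not overlap, but the direction of several rests on MUPs being in the total. With MUPs left out, the secreted share was 26.2%, 24.6% and 26.4% in the females and 22.8% and 22.4% in the males, so its order turned. The housekeeping order turned too, to 4.89% to 4.96% in females and 5.29% and 5.51% in males. The mitochondrial share (30.5% to 32.5%) and the metabolic share (13.4% to 14.5%) then overlapped between the sexes. With 2 animals against 3, the 5 livers can be split in only 10 ways. An exact permutation test of a share is too coarse with so few splits, so no p is given for shares.

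Of the 30 transcripts named for abundance, 12 are encoded by the mitochondrial genome, 6 are MUPs and the others are mainly plasma proteins, apolipoproteins and enzymes of lipid and drug handling. Numbered predicted genes were not named; rows of predicted genes, pseudogenes or without a name took 4.28% ± 0.767 of the total and 6 places in the first 100. The order from the mean over all livers changed little with the summary: the median over the 5 livers kept 94 of the first 100 transcripts.

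**Figure D2:**
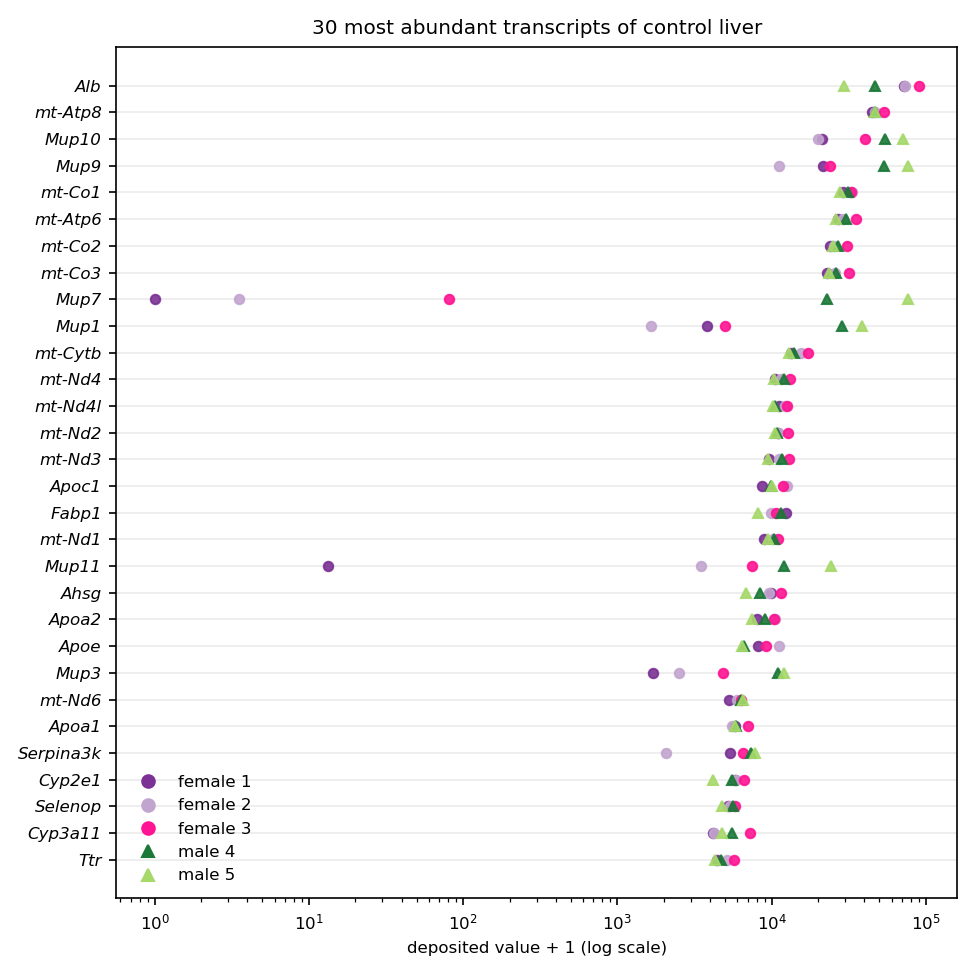
Deposited value plus 1 (log scale) of the 30 named most abundant transcripts, ordered by their mean, with 1 point per liver. Alb runs from 29487 in male 5 to 90015 in female 3, most mitochondrially encoded transcripts lie close together, and Mup7 runs from 0 in female 1 to 76801 in male 5.

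Albumin is the main protein of plasma and the carrier of fatty acids and bilirubin. Alb (chr5:90460897-90476602, plus strand, GRCm38) was at 71875, 72989 and 90015 in females 1 to 3 and at 46835 and 29487 in males 4 and 5, a mean of 62240 ± 23927. Both males lay below every female, and the male minus female difference was -1.07 ± 0.28 (SE) on the log2(value + 1) scale, which did not pass (limma adjusted p = 0.225). Over all 10560 tested transcripts the sexes did not overlap in 29.9%, so such a separation alone is common here.

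Several other abundant carriers varied less between livers than Alb, whose CV (SD over mean) was 38.4%. Ambp, the precursor of an inhibitor and a small lipocalin, was at 1478, 1582, 1484, 1459 and 1578. Selenop, which carries selenium to other tissues, stood at 5356 ± 385, the thyroxine and retinol carrier partner Ttr at 4864 ± 588, the vitamin D carrier Gc at 4576 ± 572, the iron carrier Trf at 4516 ± 677 and the retinol carrier Rbp4 at 2952 ± 337. The row listed for Trf is a retained-intron transcript, and those for Apoe and Mup9 are processed transcripts, so their levels are those of 1 non-coding form of each gene. The row of Psma3 is a retained-intron form as well, and those of Mgst1, Fga, Ndufa4, Serpinc1, Hamp2, Apob, Igf1, Ghr, Elovl3, Hnf4a, Slc22a26, Prlr and Mup8 are coding forms other than the principal one. The fetuin Ahsg, an inhibitor of calcification, was at 9256 ± 1743, and the haem carrier Hpx at 3152 ± 584 with its highest value, 4187, in male 5. Serpina6, which carries glucocorticoids, and Serpina7, which carries thyroxine, spread more widely than Alb: Serpina6 was at 198, 395, 238, 152 and 83.9, and Serpina7 at 34.6, 23.8, 22.9, 10.7 and 58.2. The fetal albumin relative Afp was at 1.73 ± 0.184, between 1.45 and 1.95 in the 5 livers.

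Apolipoproteins and lipoprotein enzymes took 4.71% ± 0.875 of the total over 24 listed transcripts. The 3 highest held 59.6% of the group's share: Apoc1 (10618 ± 1564), which inhibits lipoprotein uptake and lipases, Apoa2 (9069 ± 1348), a structural protein of high-density lipoprotein, and Apoe (8324 ± 1975), a ligand of lipoprotein receptors. Apoa1, the main protein of high-density lipoprotein, was at 5766, 5513, 7068, 5835 and 5829, so female 3 was highest and the other 4 lay close together. Apob, of very low density lipoprotein, was at 646 ± 116 on a listed transcript of 2174 bases with 1233 coding bases, a short form of a gene known for a very large protein, and Apoc2, the activator of lipoprotein lipase, at 397 ± 60.7. Angptl8, a feeding-responsive inhibitor of lipoprotein lipase, spread widest of the group: 19.8, 86.3 and 27.9 in the females, 65.8 and 11.99 in the males.

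The clotting proteins were led by the fibrinogen chains. Fgg was at 3907, 3548, 4155 and 3245 in females 1 to 3 and male 4, and at 5920 in male 5. Fga and Fgb had the same shape, with 4970 and 3114 in male 5 against 2593 to 3095 and 1845 to 2331 in the other 4 livers. Male 5 was the highest for all 3 chains. Prothrombin (F2, 835 ± 42.4), plasminogen (Plg, 1060 ± 62.2) and antithrombin (Serpinc1, 1201 ± 113) varied little, and protein S (Pros1) had a mean of 24.8 ± 1.35.

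Acute phase proteins, which the liver secretes on inflammatory signals, set male 5 apart. The serum amyloid Saa1 was at 77.0, 128 and 73.8 in the females, 134 in male 4 and 3812 in male 5. Saa2 was at 27.9, 53.1, 26.4, 28.04 and 1653. The haemoglobin scavenger Hp was at 1639, 1847, 1561, 1214 and 2933, the leucine-rich glycoprotein Lrg1 at 121.7, 164, 89.2, 102 and 440, and the siderophore binder Lcn2 at 22.3, 34.5, 12.1, 5.1 and 61.8. Male 5 was the highest liver for 10 of the 15 members of the list: these 5, Saa4, Orm1, Apcs, Itih4 and Saa3. Saa3 and Itih4 were only just highest, at 16.9 against 12 to 16.5 and at 445 against 282 to 427. Crp, at 412 in male 5 within a range of 326 to 436, and Itih3, at 222 within 195 to 260.3, were not highest there, nor were Orm2, Orm3 and Lbp. The group's share of the total was 0.473% to 0.63% in 4 livers and 1.25% in male 5.

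Other values moved with male 5. The summed level of 10 neutrophil markers was 68.0 there against 12.01 to 20.4, through S100a8 (34.8 against 6.11 to 9.46) and S100a9 (24.5 against 4.2 to 8.76), while 7 of the 10, among them Mpo, Elane, Ngp and Ly6g, had means under 1. Xbp1, a regulator of secretory capacity, was at 172 against 64.3 to 84.1. Red cell and bile duct markers were highest in male 5 too: the erythroid list summed to 1856 there against 1140 to 1268, and the cholangiocyte list to 63.5 against 37.4 to 48.9. The part of these cells in the acute phase values was not tested.

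Serpins, the family of serine protease inhibitors, and related inhibitors took 2.77% ± 0.704 of the total. Serpina3k was at 5357, 2069, 6482, 7393 and 7835, so female 2 was lowest. The mouse has several neighbouring copies of the alpha-1-antitrypsin gene, and those differed between animals in a way that did not follow sex. Serpina1e was at 1238 and 1266 in females 1 and 3 and at 3698 in male 4, but at 18.5 in female 2 and 28.4 in male 5. Serpina1d was at 2803, 716, 2170, 1885 and 771, and Serpina1c at 5338, 1456, 4650, 5220 and 2958, again with female 2 and male 5 lowest. Serpina1a did not follow them (4299, 3934, 4806, 4735 and 6224). The 5 copies summed to 19144, 8434, 17590, 19559 and 13099 in the same order of livers, with female 2 and male 5 lowest.

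The 5 Serpina1 coding sequences are printed over the 75 bases in which they differ most, coding bases 1099 to 1173 of 1239, because reads can be assigned to a copy only through such positions. They are GENCODE M21 transcripts on the minus strand of GRCm38 chromosome 12, written 5′ to 3′. Capitals mark bases that differ from Serpina1a. Serpina1a spans chr12:103853591-103863551, Serpina1b chr12:103728156-103738158, Serpina1c chr12:103894926-103904887, Serpina1d chr12:103763594-103773592 and Serpina1e chr12:103947011-103956898.
Serpina1a: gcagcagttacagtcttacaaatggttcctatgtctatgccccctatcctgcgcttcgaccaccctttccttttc
Serpina1b: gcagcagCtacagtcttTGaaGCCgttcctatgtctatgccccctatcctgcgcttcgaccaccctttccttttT
Serpina1c: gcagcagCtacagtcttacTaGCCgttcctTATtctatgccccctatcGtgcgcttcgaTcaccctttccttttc
Serpina1d: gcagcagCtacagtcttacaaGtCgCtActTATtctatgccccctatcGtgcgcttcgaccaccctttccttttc
Serpina1e: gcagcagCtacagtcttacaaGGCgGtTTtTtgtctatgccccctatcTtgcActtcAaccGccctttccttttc

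Over the whole coding sequence, the 10 pairs of these copies were 96.3% to 98.5% identical. In this stretch Serpina1e differed from Serpina1a at 12 bases, of 43 in the whole coding sequence. Cut into words of 31 bases, the length at which kallisto matches reads by default, 43.6% of the words of the Serpina1e transcript and 10% of those of Serpina1a occurred in no other gene of GENCODE M21. Serpina1e, with the widest spread between livers, is thus the copy with most sequence of its own.

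MUPs took 5.89%, 4.56% and 8.32% of the total in females 1 to 3 and 19.4% and 31.3% in males 4 and 5. All 21 listed Mup transcripts had a mean of at least 1, and 13 were among the first 100. Their summed value was 51432, 42197 and 86936 in the females and 201839 and 364824 in the males. The order of the livers was the same, by these sums, whether values or shares were used.

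Members differed widely. Mup10 (chr4:60578260-60582199) was high in every liver, at 21353, 19999 and 40395 in the females and 54054 and 71030 in the males. Mup7 (chr4:60066470-60070411) was at 0, 2.5 and 80.0 in the females and at 22990 and 76801 in the males. Mup1 was at 3796, 1656 and 4961 against 28578 and 38457. Mup3, closest to Mup21 in coding sequence (94.7% identical), was at 1697, 2509 and 4816 against 11052 and 12027, and Mup20, the male pheromone protein known as darcin, at 80.1, 283 and 650.1 against 4304 and 13421. Both males lay above every female in all members but Mup18, which was highest in female 2, at 1104, and lowest in female 1, at 12. Mup11 was at 12.3 in female 1 but 3466 and 7516 in females 2 and 3. Female 3 was the highest female for Mup10, Mup7, Mup1, Mup11, Mup3, Mup14 and Mup20.

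The first 75 coding bases of 4 members on the minus strand of GRCm38 chromosome 4 show how alike they are. Each has 540 coding bases, capitals mark bases that differ from Mup10, and Mup14 spans chr4:61301100-61303998 and Mup1 chr4:60498012-60501960.
Mup10: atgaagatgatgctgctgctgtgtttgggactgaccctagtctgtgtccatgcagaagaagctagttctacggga
Mup7: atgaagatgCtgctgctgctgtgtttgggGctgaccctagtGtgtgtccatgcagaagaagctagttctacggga
Mup1: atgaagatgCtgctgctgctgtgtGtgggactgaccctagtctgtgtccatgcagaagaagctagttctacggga
Mup14: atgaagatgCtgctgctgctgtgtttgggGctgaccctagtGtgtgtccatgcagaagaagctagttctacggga

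Mup7 and Mup14 carry the same 3 differences from Mup10 here, and differ from it at 7 and 6 bases over the whole coding sequence. Of 31-base words, 10.1% were found in Mup10 alone, 1.45% in Mup7 alone and 0.322% in Mup14 alone, and none in Mup2, Mup15 or Mup19 alone. Over the 21 members the median was 7.11%. Levels of single MUPs are therefore uncertain, and the sum is the safer value. The sum has its own limit, because it takes in Mup9, a non-coding row of 338 bases. The value per length of so short a row leans on the effective length used. Mup9 held 2.46%, 1.21% and 2.3% of the total in females 1 to 3 and 5.17% and 6.54% in males 4 and 5. These parts count in the MUP and secreted shares. Mup3 (66.3%), Mup21 (66.2%), Mup5 (63.0%) and Mup6 (74.2%) had most words of their own, and each of these 4 was higher in both males than in every female.

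**Figure D3:**
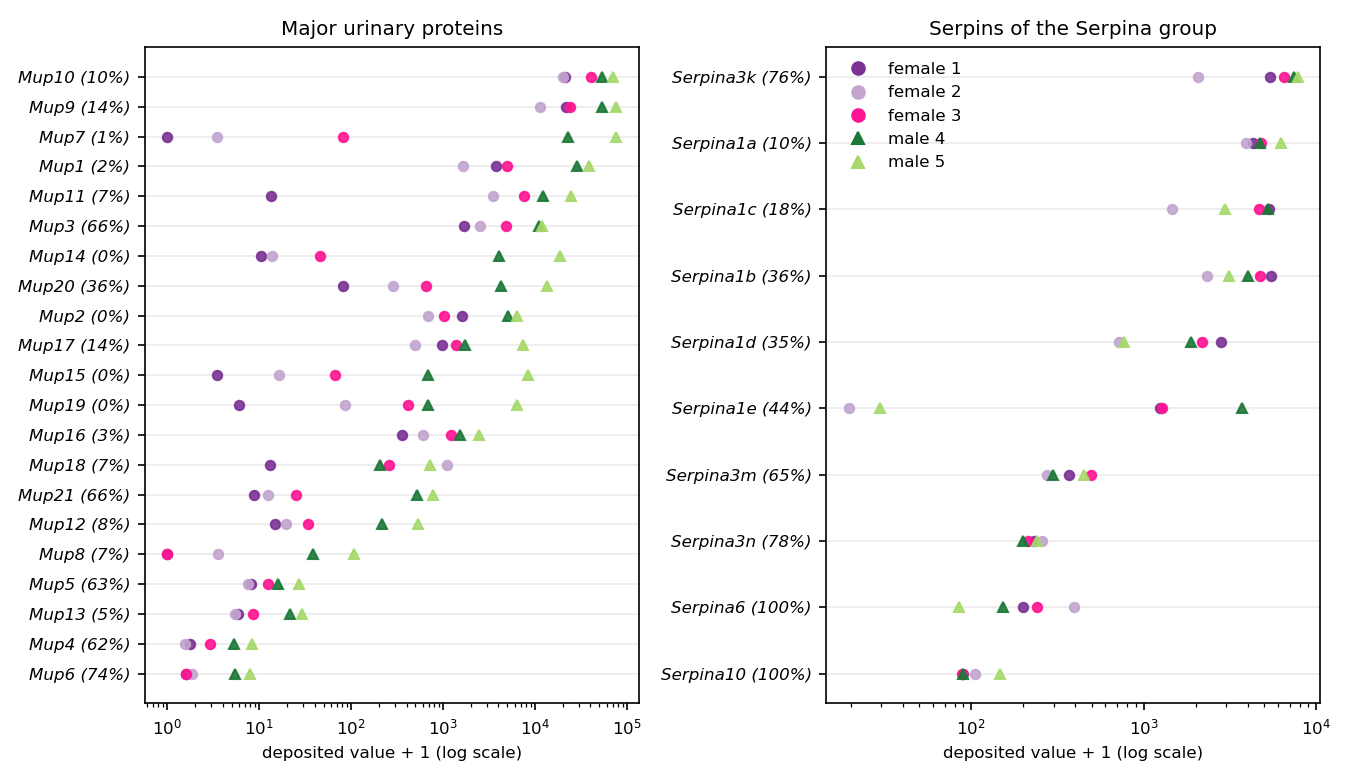
Deposited value plus 1 (log scale) of the 21 Mup transcripts (left) and of 10 Serpina transcripts (right), 1 point per liver. Percentages are the words of 31 bases that no other gene of GENCODE M21 holds; males (triangles) lie to the right for most Mup rows, while female 2 and male 5 lie apart to the left for Serpina1e.

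Transcripts of the mitochondrial genome took 25.3%, 26.2% and 26.2% of the total in the females and 23.1% and 19.1% in the males. All 13 protein-coding ones were among the first 100. They encode subunits of the respiratory chain and ATP synthase, and in order of level they were led by mt-Atp8 (47839 ± 3189), mt-Co1 (30848 ± 2439), mt-Atp6 (29431 ± 3593), mt-Co2 (26519 ± 2723) and mt-Co3 (25950 ± 3484). The complex I subunits lay lower, from mt-Nd4 (11522 ± 1112) to mt-Nd5 (3596 ± 160). In values, not shares, mt-Atp8 was at 45071, 47161, 53351, 46677 and 46935 and the sexes overlapped. With MUPs left out of the total, the group's share was 26.9% to 28.5% in females and 27.8% and 28.6% in males.

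These levels carry 2 limits of measurement. The mt-Atp8 transcript is 204 bases long, so its value per length leans on the effective length used. Copies of the mitochondrial genome in the nucleus share its sequence, and 5 of the 13 transcripts had under 10% of their words to themselves in GENCODE M21.

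Nuclear genes of the respiratory chain (88 listed) took 2.03% ± 0.167 of the total, led by Ndufa4 (1322 ± 190), a small cytochrome oxidase-associated subunit, Usmg5 (973 ± 125) of ATP synthase and Cox6c (750.1 ± 75.1) of cytochrome oxidase. The mitochondrial ribosome (79 genes) took 0.25% ± 0.0168, and the highest was Mrpl52 (111 ± 8.26). Carriers of the inner membrane took 0.19% ± 0.0308, led by the liver-rich Slc25a47 (495.5 ± 122.3) and the ADP/ATP carrier Slc25a5 (379 ± 18.9). The citric acid cycle and pyruvate group took 0.15% ± 0.0229, with Suclg1 highest (175 ± 12.3).

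Among metabolic groups, cytochrome P450 enzymes held the largest share, at 2.88%, 2.84% and 2.94% in the females and 2.21% and 1.66% in the males. Of 99 listed members 65 had a mean of at least 1. Cyp2e1, which oxidises ethanol and acetone, was at 5817, 5891, 6596, 5561 and 4143. Cyp3a11, a broad drug and steroid hydroxylase, was at 4183, 4219, 7298, 5562 and 4778, and these livers overlapped between the sexes. With Cyp2c29 (1081 ± 146) they held 47.8% of the group's share. Bile acid enzymes were low beside them: Cyp7a1, the rate-limiting enzyme of bile acid synthesis, was at 29.9, 35.7 and 12.5 in females and 25.3 and 4.1 in males, and Cyp8b1 at 154 ± 46.8.

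Lipid binding proteins took 1.45% ± 0.246, of which Fabp1, the cytosolic fatty acid binder, held 73.0%. It was at 12378, 9876, 10736, 11520 and 8174. Conjugating enzymes took 1.31% ± 0.126, led by the membrane glutathione transferase Mgst1 (2752, 2534, 3750, 4595 and 4697). Gstm1, a cytosolic glutathione transferase, was among the steadiest transcripts of the liver, between 624 and 667.

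Amino acid and nitrogen handling was led by Cdo1 (1666 ± 369), which oxidises cysteine, and by the urea cycle enzymes Arg1 (1596 ± 323), Ass1 (1396 ± 121) and Cps1 (790.3 ± 82.9). The urea cycle and glutamate group took 0.631% ± 0.108. The methionine and one-carbon group took 0.748% ± 0.188 and was highest in female 2 (1.08% against 0.623% to 0.719%). There Bhmt, which remethylates homocysteine, was at 2476 and Gnmt, which uses up S-adenosylmethionine, at 2279. Bhmt was also high in male 5 (2704) against 1207 to 1319 in the other 3 livers. The metal binders Mt1 and Mt2 were highest in female 2 as well, at 1041 and 989 against 316 to 569 and 162 to 475.

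The group of glucose, fructose and glycogen metabolism took 0.877% ± 0.204, and its gluconeogenic enzymes Fbp1 and Pck1 stood at 823 ± 105 and 662 ± 105. Fatty acid oxidation and ketone synthesis took 0.579% ± 0.137. Lipogenesis was led by the desaturase Scd1 (652, 561, 532, 1130 and 695). The iron stores Ftl1 (2442 ± 256) and Fth1 (1532 ± 84.4) held most of the iron and haem group. The iron hormone Hamp was at 965, 1477, 1602, 2257 and 1904, while its copy Hamp2 was at 672, 1723, 933, 323 and 89.9.

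Ribosomal proteins of the cytosol (87 with a mean of at least 1) took 2.65% ± 0.287 with no dominant member, since the 3 highest held 8.93% of the group. The elongation factor Eef1a1 was at 2943 ± 176. Transcription factors that define hepatocytes were low beside these. All 20 of the list had a mean of at least 1, with a median of 26.8 and Cebpa (158 ± 23.4), Creb3l3 (148 ± 19.5) and Hnf4a (91.3 ± 12.9) among the highest. Their summed value, 817 to 913, differed little between livers, but single members spread more. The median CV of these factors was 18.8%, against 13.7% for transcripts of like abundance, and 15 of the 20 were above the median of their abundance range.

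Hepatocytes near the central vein and near the portal tract express different enzymes. All 14 pericentral markers had a mean of at least 1, and they summed to between 8744 and 12181. Cyp2e1, Rgn (1446 ± 267) and Rnase4 (822 ± 153) led, and glutamine synthetase (Glul), limited to the innermost cells, was at 432, 386, 420.1, 358 and 377. The 14 periportal markers summed to 5105 to 6488, led by Arg1, Ass1 and Cps1. These sums describe the whole lobe, not the zones.

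Livers differed least in the middle of the abundance range. The median coefficient of variation (CV, SD over mean, n = 5) was 12.2% for the 742 transcripts with means of 100 to 1000 and 12.2% for the 3579 from 10 to 100. It was 18.8% for the 101 at 1000 and above and 18.2% for the 6138 from 1 to 10. Reads counted at random would give about 0.519% in the highest bin and 8.74% in the lowest. The first figures are between animals of both sexes and the second cover counting error only. Over all 10560 transcripts the median CV was 15.3%, the median SD of log2(value + 1) was 0.186, and 19.7% differed more than 2-fold between the highest and lowest liver.

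The steadiest transcripts with a mean of at least 50 were Slc31a1, a copper importer (73.5 to 77.1, CV 1.91%), Prkar1a, a regulatory subunit of protein kinase A (CV 2.09%), Aifm1, a mitochondrial flavoprotein (CV 2.09%), and the ribosomal protein Rpl7a (CV 2.11%). Gstm1, Hsp90ab1, Psma3, Chchd3 and Dars were also among the 10 steadiest, with CVs of 2.39% to 3%. By group, the medians of members were 9.27% for the proteasome and ubiquitin, 8.89% for mitochondrially encoded transcripts and 9.93% for ribosomal proteins. Transcripts in the same abundance bins as the mitochondrially encoded ones had a median of 18.8%, and none of the 13 was above its bin's median.

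The widest spreads were those of Saa2 (CV 202%), Mup15 (201%), Saa1 (196%), the steroid sulfotransferase Sult2a1 (186%) and Mup19 (181%), followed by Mup14, Mup7, Cyp7b1, Mup20 and Selenbp2. Sult2a1 was at 641 in female 2, 68.3 and 35.2 in females 1 and 3, and under 1 in both males. Selenbp2 was at 25.3, 1.27, 20.6, 275 and 62.5, and Cyp7b1, which hydroxylates oxysterols and steroids, at 14.2, 12.3 and 17.3 in females, 76.7 in male 4 and 414 in male 5. By group the median CV was 107% for MUPs, where all 21 were above the median of their abundance bin. It was 36.3% for P450 enzymes (54 of 65 above), 35.5% for acute phase proteins (13 of 15), 31.5% for conjugating enzymes (54 of 62) and 26.3% for cholesterol synthesis (19 of 22). These counts take in differences between the sexes as well as those between single livers.

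**Figure D4:**
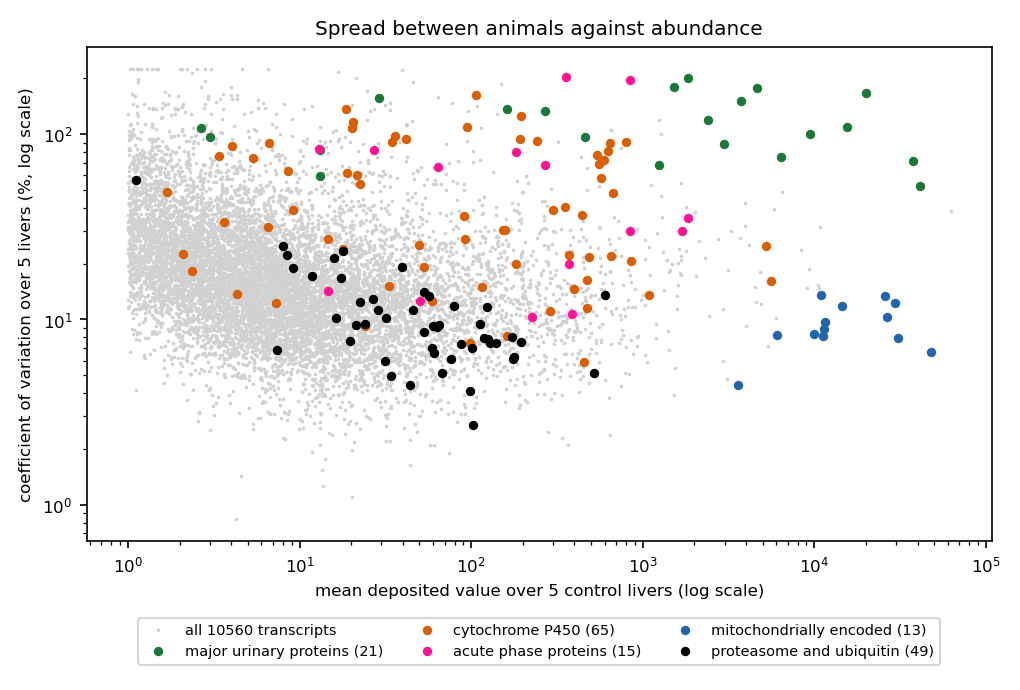
Coefficient of variation over the 5 livers (%, log scale) against the mean deposited value (log scale) of the 10560 transcripts with a mean of at least 1, with 5 gene groups in colour. MUPs lie at the top (median 107%) at high abundance, and mitochondrially encoded transcripts at the bottom right (median 8.89%).

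Genes that follow the time of day, feeding or handling also spread between these livers. Of the clock and its outputs 14 of 18 had a mean of at least 1, with a median CV of 26.0%. Dbp, an output of the clock, was at 7.21, 19.1 and 2.87 in the females and 22.0 and 1.04 in the males. The clock component Arntl was at 3.71, 2.75, 6.14, 2.97 and 9.66, and Nfil3, a repressor of the same target sites as Dbp, at 5.55, 6.36, 7.7, 8.14 and 24.7. Dbp was thus lowest in the 2 livers, male 5 and female 3, in which Arntl was highest. These livers differ in sex.

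The feeding and fasting list (19 of 20 with a mean of at least 1) had a median CV of 38.8%. Its widest members were the fasting hormone Fgf21 (11.01, 6.35, 3.97, 3.31 and 0.129), Pdk4, which spares glucose (5.5, 8.85, 5.01, 1.95 and 1.23), and the fatty acyl-CoA hydrolase Acot1 (94.97, 72.6, 51.6, 27.6 and 9.83). Male 5 was lowest for all 3. The fatty acid hydroxylases Cyp4a14 (919, 1196, 835, 175 and 10.499) and Cyp4a10 (794, 1154, 659, 308 and 45.2) had the same order of sexes. None of these 5 passed the sex test. Immediate early and heat shock genes had a median CV of 40.3%, and Egr1, an early response gene, was at 9.54, 16.3, 4.51, 6.55 and 0.744.

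The male and female livers were compared on log2(value + 1) with limma over the 10560 transcripts, with Benjamini-Hochberg adjustment at 0.05. This called 74 transcripts (0.701%): 43 higher in males (0.407% of those tested) and 31 higher in females (0.294%). At an unadjusted p under 0.05 there were 1301. Both males lay above every female in 15.3% of the tested transcripts and below in 14.6%. By group, 3 of 65 tested P450 enzymes were called higher in males and 7 in females. Of 62 tested rows of conjugating enzymes, 6 were called in males and 3 in females. Those 6 take in 2 rows of Gstp1 with the same values. Of 21 MUPs, 6 were called in males and 0 in females, and 3 of 3 tested Y-linked genes were called in males. Depth went with sex. With every library scaled to equal totals, the median difference of all transcripts was -0.19 on the log2 scale, against 0 to 2 decimals on the deposited scale. In that setting 103 were called. With totals made equal without MUPs, the median difference was 0.09 and 108 were called.

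The count rested on single livers. It was 20 without female 1, 54 without female 2, 49 without female 3, 138 without male 4 and 47 without male 5. Of the 28 named rows, 12 passed under all 14 alternatives in which they were tested, among them Cyp3a41a, Cyp2b13, Cyp3a41b, A1bg, Cyp3a44, Slc22a27, Cyp4a12b, Eif2s3y, Ddx3y and the 2 rows of Gstp1. The other 16 lost the call under at least 1 alternative, 14 of them without female 1 and 12 without male 5. Without female 1 these were Sult2a2, Cyp2b9, Sult2a5, Slc22a26, Alas2, Uty, Mug2, Mup12, Ugt2b38, Cyp4a12a, Mup8, Elovl3, Hsd3b5 and Mup14. Mup21 lost it without male 5, and Sult3a1 without female 3, male 4 or male 5. With all 5 livers kept, 18 of the 28 passed every alternative, while 9 lost the call with a robust prior variance, 6 with the filter lowered to a mean of 0.1 and 5 with a pseudocount of 0.1. None changed direction.

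Male-higher genes were led by Mup14, at 9.38, 12.6 and 44.6 in females against 4086 and 18918 in males, a difference of 8.88 ± 0.84 (SE) on the log2(value + 1) scale (adjusted p = 0.0136). Only 0.322% of the 31-base words of Mup14 were its own, so its level leans on reads shared with other MUPs. Its call was lost under 4 of 14 alternatives. Hsd3b5, a steroid reductase of male liver, was at 1.66, 0.0801 and 4.6 against 245 and 230.2 (adjusted p = 0.0143), a ratio of means of 112. Elovl3, which elongates long fatty acids, was at 5.89, 2.17 and 7.91 against 173 and 349.8, and its means differed 49.1-fold. The fatty acid hydroxylase Cyp4a12a was at 12.5, 4.52 and 30.6 against 447 and 479 (29.2-fold, adjusted p = 0.0431), and its neighbour Cyp4a12b was under 1 in all females against 40.2 and 51.6. In each of these genes the lowest male was above the highest female by more than 5-fold.

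Other male-higher genes among those named were Mup21, Mup8, Mup12, the glucuronosyltransferase Ugt2b38 and the protease inhibitor Mug2. Gstp1, a glutathione transferase, was listed on 2 rows with the same values, 150, 144 and 201 against 1160 and 1608, which are 8.38-fold apart and cannot be told apart. The Y-linked Eif2s3y and Ddx3y, and Uty at a mean of 1.4, were called as well, which is 3 of the 3 Y-linked genes tested. The erythroid haem enzyme Alas2 was higher in males (24.9, 21.7 and 32.7 against 78.8 and 85.8, adjusted p = 0.0241), while the 4 globin rows did not pass.

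Female-higher genes were led by Cyp3a41a, a steroid hydroxylase of female liver, at 1221, 1302 and 1449 in females against 11.5 and 2.74 in males. The ratio of means was 186 and the difference -7.59 ± 0.47 (SE) on the log2(value + 1) scale (adjusted p = 0.00363). Cyp2b9 was at 279, 418 and 248 against 14.2 and 1.12, and Cyp2b13 at 129, 249.7 and 93.3 against under 1 in both males. Females were within 3-fold of each other in these 3 genes.

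Sulfotransferases, which attach sulfate to steroids, bile acids and other small molecules, followed. Sult2a2 was at 164, 440.4 and 97.5 against 0.921 and 0.247, Sult2a5 at 30.4, 109.5 and 17.4 against 0.246 and 0, and Sult3a1 at 90.8, 18.2 and 27.7 in females and listed at 0 in both males. Further named female-higher genes were Cyp3a41b, Cyp3a44, the organic anion transporters Slc22a26 and Slc22a27, and the plasma glycoprotein A1bg (35.5, 33.5 and 29.2 against 0.559 and 0.122). Cyp3a41a had 0.148% and Cyp3a41b 4.13% of their 31-base words to themselves, so these 2 neighbours cannot be separated well, whereas A1bg (99.8%) can.

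**Figure D5:**
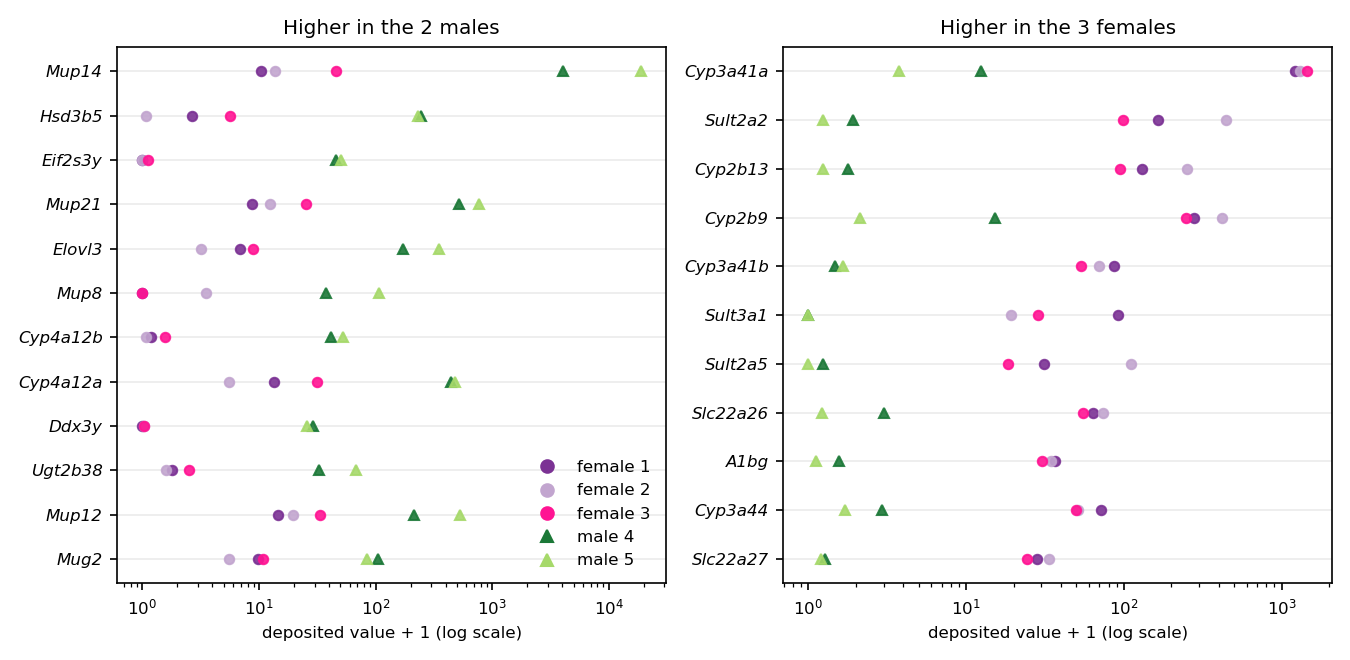
Deposited value plus 1 (log scale) of transcripts from the 12 largest male-higher (left) and the 12 largest female-higher (right) differences among those called with a mean of at least 10, 1 point per liver (circles females, triangles males). The sexes do not overlap in any row drawn, as the rule that chose them makes likely.

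From lists of sex-biased liver genes, which were drawn up with earlier results of these data known and are no independent evidence, 11 of 26 tested female-biased genes passed as higher in females and 0 as higher in males (background 0.294% and 0.407%), and 12 of 31 tested male-biased rows passed as higher in males and 0 in females. Their median differences were -4.25 and 3.06 on the log2(value + 1) scale, against 0 to 2 decimals over all tested transcripts. Several large differences did not pass: Mup7 (adjusted p = 0.0527), Mup1 (0.0508), Cyp2a4 (0.0684; 499, 371 and 318 against 17.9 and 0.714) and Cyp2d9 (0.0631; 166, 218 and 347 against 1081 and 894). These misses do not show that the sexes were alike. Of 11 tested genes of the growth hormone pathway, from the receptor Ghr (138 ± 20.8) to Igf1 (191 ± 33.8), 0 passed, where 0.701% of all tested did. The prolactin receptor Prlr was at 43.4, 40.8 and 41.2 in females against 25.3 and 12.04, and the cytokine-induced inhibitor Socs3 was at 19.96 in male 5 against 1.28 to 3.83.

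Abundant transcripts were short. Among protein-coding rows outside the mitochondrial genome, the median length was 1352.5 bases in the first 100 (78 of 87 rows), 1585 from there to rank 1000 (823 of 900 rows) and 2791 below (8686 of 9560 rows). The coding part was 969, 876 and 1311 bases. GC content differed little, with medians of 47.9%, 49.9% and 49.9%. The first 100 take in many Mup rows, most of them close to 927 bases, and no median without them was computed. The values are already per length, and lengths are those of the listed transcript in GENCODE M21. Promoters were not compared, because 61 of the 87 nuclear rows in the first 100 had an entry in the RefSeq promoter table, under the 80% needed.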

How the data were processed

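The deposited table gives, for each library, a normalised signal per transcript. The submitters' processing notes name kallisto, sleuth and mm10. That the signal is abundance per transcript length over a library size factor was read from the values, whose sums differ between libraries. No source used here states their versions, the transcript set or how 1 transcript was picked for each gene. The authors' mean observation per transcript was taken as a natural log of normalised counts over all 9 libraries, from the deposited column's name and values. It served only to estimate a fragment length (130 bases) for effective lengths. Reads were then estimated from the steps between low values; within a tolerance of 0.15 read, 64.2% to 71.5% of the values below about 10 reads came out whole, too few for a count test. Reads per unit of value scaled with effective length (r of logs 0.941 across 5127 transcripts), so depths are approximate.

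Symbols came from GENCODE M21 by gene identifier (98.5% matched); 836 deposited symbols differed. Testing covered rows whose control mean reached 1 and ran on log2(value + 1), pseudocount 1, with limma 3.58.1 (R 4.3.3), male minus female, trended prior; such differences understate those of low transcripts. P-values set the difference between the sexes against the spread within the sexes among these animals, drawn toward the trended prior. On simulated data with this design (10560 genes, 200 changed), the fit found 75% of the genes shifted by 1 on the log2 scale and 99% of those shifted by 2, and 19 of its 193 calls were false. The simulated noise was normal and independent, with no difference in depth and no liver apart. These rates therefore check the fit and do not give its power in these livers, where several large differences did not pass. Families were aligned with Biopython 1.88 and tables handled with pandas 2.3.3.

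Members and lists were chosen with earlier results of these data known. Named were the 30 highest means, the 3 highest of each class, the 12 largest called sex differences each way with a mean of at least 10, up to 4 called members of each list per side, the 10 highest and lowest CVs among means of at least 50, and the 3 widest members of the clock, feeding, stress and acute phase lists; other genes were named for their role after values were seen. Numbered predicted genes and pseudogenes were not named, and some genes that the rule names are not reported here.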

Additional observations from a re-analysis of the deposited data

Results flagged for a closer look

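Each named gene (94) and each class or group share (38) was searched for a liver that stood apart from the other 4 by Dixon's criterion for 5 samples (gap over range above 0.71). The criterion marked 18 values, 15 of genes and 3 of shares: 0 in female 1, 3 in female 2, 5 in female 3, 1 in male 4 and 9 in male 5. Chance alone marks about 5% of groups not chosen for their spread. That rate does not apply here, because many of the genes, among them Saa1, Saa2, Mup14, Mup15, Mup19, Sult2a1, Selenbp2, Cyp7b1 and Nfil3, were named for their wide spread, and groups that share genes are not independent. Genes with a sex difference have males or females apart already, which this criterion does not take into account.

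Male 5 was apart for the acute phase transcripts Saa1 (3812, next 134) and Saa2 (1653, next 53.1) and for the acute phase share (1.25%, next 0.63%). It was also apart for the repressor Nfil3 (24.7, next 8.14), for Cyp7b1 (414, next 76.7) and for Mup14 (18918, next 4086), Mup15 (8473, next 677), Mup17 (7491, next 1743) and Mup19 (6438, next 689). The single Mup values share reads with other members. In male 4, Selenbp2 was at 275 with the next liver at 62.5.

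Female 2 was apart for the sulfotransferases Sult2a1 (641, next 68.3) and Sult2a5 (109.5, next 30.4) and for the methionine and one-carbon share (1.08%, next 0.719%). Female 3 was apart for Apoa1 (7068, next 5835), mt-Atp8 (53351, next 47161), mt-Nd2 (12802, next 10987) and, by a small amount, Rpl7a (379.9, next 364). Its cholesterol synthesis share was the lowest, at 0.11% with the next liver at 0.156%.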

How the results depend on the processing

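The count of sex differences moved most. Fitting all 9 libraries called 142 transcripts, 74 higher in males and 68 in females. Equal totals gave 53 higher in females (50 in males), and equal totals without MUPs gave 71 higher in males (37 in females), so 48.5% and 65.7% of calls were male higher against 58.1%. Leaving out 1 liver gave 20 to 138 calls, 8 to 61 higher in males and 12 to 77 higher in females. Of the values for single genes under alternatives, 324 kept their side of the threshold and 65 lost it, with no direction reversed. No paired analysis was possible because the females are replicates 1 to 3 and the males 4 and 5, so the sexes share no number.

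With mitochondrially encoded transcripts left out of the total, the first 10 held 28.8% and the first 100 held 56.5%, 54 transcripts held 50%, and the shares were 45.9% secreted, 4.22% mitochondrial, 15.9% metabolic, 5.79% housekeeping and 13.6% albumin and carriers. With MUPs left out, the first 100 held 61.7%, 35 transcripts held 50%, and the shares were 24.5% secreted, 31.6% mitochondrial, 13.97% metabolic, 5.12% housekeeping and 27.8% mitochondrially encoded. Leaving out 1 liver gave 32.9% to 34.1% for the first 10, 64.9% to 66.8% for the first 100 and 27 to 30 transcripts for 50%. In the same way the shares ran from 32.2% to 36.9% (secreted), 9.53% to 16.2% (MUPs), 9.59% to 11.4% (albumin and carriers), 26.5% to 28.5% (mitochondrial), 23.4% to 25.2% (mitochondrially encoded), 11.6% to 12.7% (metabolic) and 4.3% to 4.53% (housekeeping). The median SD on the log2 scale was 0.165 to 0.187, and 14.5% to 18.9% of transcripts differed more than 2-fold. The median coding transcript length over the first 300 was 1394 bases.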
